A study of Mus musculus with 3 samples.

Results

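The YAP target genes Cyr61, Ctgf, Ankrd1, Amotl2, F3, Lats2, Ajuba and Axl were followed in mouse cochlear organoids, in which Lgr5+ progenitor cells were expanded and then differentiated in 3D culture. These 8 genes were chosen by name among the 31053 genes of the count matrices, and the symbols Cyr61 and Ctgf, now Ccn1 and Ccn2, are used as the gene tables give them. All 8 were present in each of the 3 single-cell RNA libraries, and their values were summed over Pou4f3-positive, Otor-high and Epcam-positive cells. The organoids were of strain C57BL/6, the labels give no age or sex, and each condition had 1 library, so that condition, medium, culture age and library cannot be told apart.

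In the expansion library, organoids at passage 2, day 8, were in medium with N2, B27, EGF, bFGF, IGF, CHIR99021 (a GSK3 inhibitor), Y-27632 and lysophosphatidic acid (LPA, a lipid ligand of G protein-coupled receptors). The day 5 library came from organoids moved from that medium to one with bFGF, BDNF, Shh, A83-01 (an inhibitor of type I TGF-beta receptors), RA and LY4115775, a compound that the labels name only by this code. The day 25 library came from organoids kept in differentiation medium after LY4115775 was withdrawn. Neither LPA nor Y-27632 is listed for the differentiation medium. All 3 libraries were made after trypsin digestion and a sort of single living cells.

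YAP and its paralogue TAZ (encoded by Yap1 and Wwtr1) are coactivators that bind DNA through TEAD factors, whose core recognition sequence is GGAATG. In the Hippo cascade MST kinases activate LATS kinases, which phosphorylate YAP and TAZ and keep them out of the nucleus. LPA acting through its receptors lowers LATS activity, and the tension of the actin cytoskeleton also acts on YAP. In the mouse cochlea, YAP has been linked to the growth of the prosensory domain, from which hair cells and supporting cells arise. Cyr61 and Ctgf encode secreted matricellular proteins and are the targets most often read as YAP activity, and both genes also respond to serum, to AP-1 and SRF and to TGF-beta.

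The windows from 250 bases before to 50 bases after the start of transcription (RefSeq, GRCm38.p6) were read for 7 of the members. The TEAD core GGAATG, on either strand, occurred in 6 of these 7 genes and in 16.6% of all 27025 genes with a window. An AP-1 site, TGANTCA, occurred in 1 of the 7, F3, and in 8.97% of all genes. No window of the 7 held the SRF CArG box, found in 1.81% of all genes. These motifs do not overlap in letters, and the matches describe the windows and not binding. Windows are shown for the 4 members that were called higher or lower in the data and had a window, and for Ankrd1, which stayed near 0. Ctgf was also called but had no window. Each window is on the strand of the gene, with each TEAD core or AP-1 site in capitals.
Cyr61, chr3:145649936-145650235, minus strand: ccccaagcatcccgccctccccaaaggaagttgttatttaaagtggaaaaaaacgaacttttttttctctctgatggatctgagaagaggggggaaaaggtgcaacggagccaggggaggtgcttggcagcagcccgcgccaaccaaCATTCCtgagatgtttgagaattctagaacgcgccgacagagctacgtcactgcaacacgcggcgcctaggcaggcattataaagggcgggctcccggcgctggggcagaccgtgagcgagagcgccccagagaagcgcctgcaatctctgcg
Amotl2, chr9:102717554-102717853, plus strand: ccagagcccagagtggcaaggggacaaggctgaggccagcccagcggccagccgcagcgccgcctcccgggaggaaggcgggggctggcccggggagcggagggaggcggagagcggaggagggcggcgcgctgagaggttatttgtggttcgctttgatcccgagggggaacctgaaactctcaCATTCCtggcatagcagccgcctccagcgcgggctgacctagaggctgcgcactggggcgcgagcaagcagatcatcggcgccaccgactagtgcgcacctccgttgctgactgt
F3, chr3:121723287-121723586, plus strand: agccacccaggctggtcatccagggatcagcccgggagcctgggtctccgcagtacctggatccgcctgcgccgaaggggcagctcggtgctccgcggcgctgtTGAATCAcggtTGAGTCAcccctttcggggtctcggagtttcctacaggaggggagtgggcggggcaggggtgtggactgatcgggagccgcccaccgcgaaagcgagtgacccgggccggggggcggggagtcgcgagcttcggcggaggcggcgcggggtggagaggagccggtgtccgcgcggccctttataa
Axl, chr7:25788684-25788983, minus strand: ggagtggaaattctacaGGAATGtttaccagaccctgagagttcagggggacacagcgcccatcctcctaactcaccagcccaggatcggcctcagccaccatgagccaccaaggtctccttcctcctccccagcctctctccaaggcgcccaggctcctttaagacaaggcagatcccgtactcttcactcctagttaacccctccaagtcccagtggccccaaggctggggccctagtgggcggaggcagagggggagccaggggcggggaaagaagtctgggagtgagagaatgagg
Ankrd1, chr19:36119795-36120094, minus strand: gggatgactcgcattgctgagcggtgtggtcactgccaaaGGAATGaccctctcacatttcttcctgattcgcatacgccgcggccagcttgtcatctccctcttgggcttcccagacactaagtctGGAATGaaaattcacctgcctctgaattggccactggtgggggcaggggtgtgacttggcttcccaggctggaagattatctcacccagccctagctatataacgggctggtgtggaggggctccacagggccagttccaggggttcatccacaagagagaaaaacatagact
The single TEAD core of Cyr61 began 103 bases before the start and that of Amotl2 65 bases before it, both on the opposite strand. F3 had no TEAD core and 2 AP-1 sites, which began 146 and 135 bases before the start, and 0.460% of all windows held 2 or more. Axl had its core 233 bases before the start, and Ankrd1 had a pair of cores 210 and 123 bases before it; 1.36% of all windows held 2 or more. Ajuba also had 2 cores, and 1 of the 2 Lats2 windows had 1. Ctgf, a gene of chromosome 10 from position 24595442 to 24598683 (GRCm38), is named without a window. It overlaps Gm15270 on the other strand, and Lats2 overlaps Gm49361 on its own strand, so reads of those pairs may be shared.

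After filters, 25432 expansion, 13202 day 5 and 6113 day 25 cells were kept, with a median of 4653, 5855 and 8475 unique molecular identifiers (UMIs, each standing for 1 captured RNA molecule) per cell. Pou4f3-positive cells (at least 2 UMIs of this hair cell transcription factor gene) numbered 149 in expansion, 332 on day 5 and 1538 on day 25. Otor-high cells (at least 20 UMIs of Otor, which encodes otoraplin, per 10000) numbered 2455, 4498 and 366, and Epcam-positive cells (at least 2 UMIs of the epithelial adhesion gene Epcam) numbered 14660, 6616 and 3691 at the same stages. The summed hair cell markers stood at 4934, 17480.2 and 14172 CPM (UMIs of a gene scaled to a common total per profile) in the Pou4f3-positive cells of expansion, day 5 and day 25, of which Pou4f3 itself gave 407, 585 and 807 CPM. Of the 12 otic mesenchyme markers other than Otor, Pou3f4 was at 149, 292 and 230.5 CPM and Tbx18 at 165, 229.8 and 261 CPM in the Otor-high cells, and Col1a1 was at or near 0. Other markers of that list differed between the stages: Apod was at 4.23, 67.2 and 3110.1 CPM there, Bgn at 2.02, 283 and 203 CPM and Postn at 0, 18.9 and 89.4 CPM. A change within Otor-high cells is therefore between sets of cells that differed in these markers, whose part in the result was not tested. Dcn and Lum, also on the mesenchyme list, were higher in Epcam-positive cells. At the 3 stages Dcn was at 388, 1239 and 419 CPM there and at 21.9, 52.9 and 25.0 CPM in Otor-high cells. Lum was at 288, 1138 and 1057 CPM in Epcam-positive and 23.3, 74.0 and 24.3 CPM in Otor-high cells. The list as a set therefore does not mark Otor-high cells alone. Of other cell types, endothelial markers summed to 607, 677 and 768 CPM in Otor-high cells, nearly all from Emcn, with Cdh5 and Pecam1 at or below 1.04 CPM. Pericyte markers reached 131 CPM in Otor-high cells of day 25, of which Pdgfrb gave 124 CPM. Neuron markers reached 1069.9 CPM in Pou4f3-positive cells of day 25, of which Nefm gave 785, Nefl 221 and Snap25 63.9 CPM. Neurod1 was at 0 and Tubb3 and Elavl4 were each at 0.110 CPM there. Macrophage markers summed to at most 10.3 CPM in any class, and called doublets had been removed. Ribosomal protein genes took 32.4%, 23.1% and 16.4% of the UMIs of Epcam-positive cells at the 3 stages, and their part in the levels was not tested beyond the scalings given below. Expansion and day 5 shared 133 barcode sequences, expansion and day 25 shared 54, and day 5 and day 25 shared 22.

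Cyr61 was called higher (at least 2-fold, with 20 CPM or more in either profile) on day 25 than in expansion in all 3 classes, by the smallest ratio in Pou4f3-positive cells. That class had 8.08 CPM in expansion, 44.6 CPM on day 5 and 75.3 CPM on day 25, with exact Poisson 95% intervals of 4.03 to 14.5, 38.5 to 51.3 and 71.4 to 79.4. These intervals, and all those below, cover counting error only, and with 1 library per condition no spread between cultures and no test could be had. The day 5 level was 5.52-fold that of expansion (3.02 to 11.2), and the day 25 level was 1.69-fold that of day 5 (1.45 to 1.97), which was not called. With Pou4f3-positive cells taken from 1 Pou4f3 UMI, the Cyr61 levels were 163 CPM for day 25 and 156 CPM for day 5, a ratio of 1.04. Otor-high cells were at 4.42 CPM (3.24 to 5.90) in expansion, 127 CPM (123 to 131) on day 5 and 967 CPM (931 to 1004) on day 25. Their Cyr61 was 28.7-fold higher on day 5 than in expansion (21.5 to 39.3) and 7.62-fold higher on day 25 than on day 5 (7.26 to 8.00). The intervals of the 3 libraries did not overlap in any class, and the lowest starting level and the widest span were in Otor-high cells. Epcam-positive cells stood at 13.1 CPM (12.5 to 13.7) in expansion, 293 CPM (289 to 296) on day 5 and 964 CPM (956 to 973) on day 25. The level there was 22.4-fold higher on day 5 than in expansion (21.3 to 23.5) and 3.29-fold higher on day 25 than on day 5 (3.25 to 3.34).

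Ctgf, whose protein acts on matrix and on growth factor signalling, was higher at each later stage in Otor-high and Epcam-positive cells, as Cyr61 was. On day 25 Ctgf was higher in Otor-high than in Epcam-positive cells, where Cyr61 was level (967 and 964 CPM). In Pou4f3-positive cells the Ctgf ratio for day 5 over expansion was 1.64 (0.762 to 4.05), with no call. Pou4f3-positive cells stayed low throughout, at 5.88, 9.65 and 13.5 CPM in expansion, day 5 and day 25. Otor-high cells had 1.44 CPM in expansion, 28.3 CPM on day 5 and 625 CPM on day 25, so that the class with the least Ctgf in expansion had the most on day 25. Their ratios were 19.6 for day 5 over expansion (11.8 to 35.2) and 22.1 for day 25 over day 5 (20.4 to 24.0). Epcam-positive cells had 7.89 CPM in expansion, 55.7 CPM on day 5 and 182 CPM on day 25. There day 5 stood 7.06-fold above expansion (6.61 to 7.54), and day 25 stood 3.26-fold above day 5 (3.15 to 3.38).

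**Figure D1:**
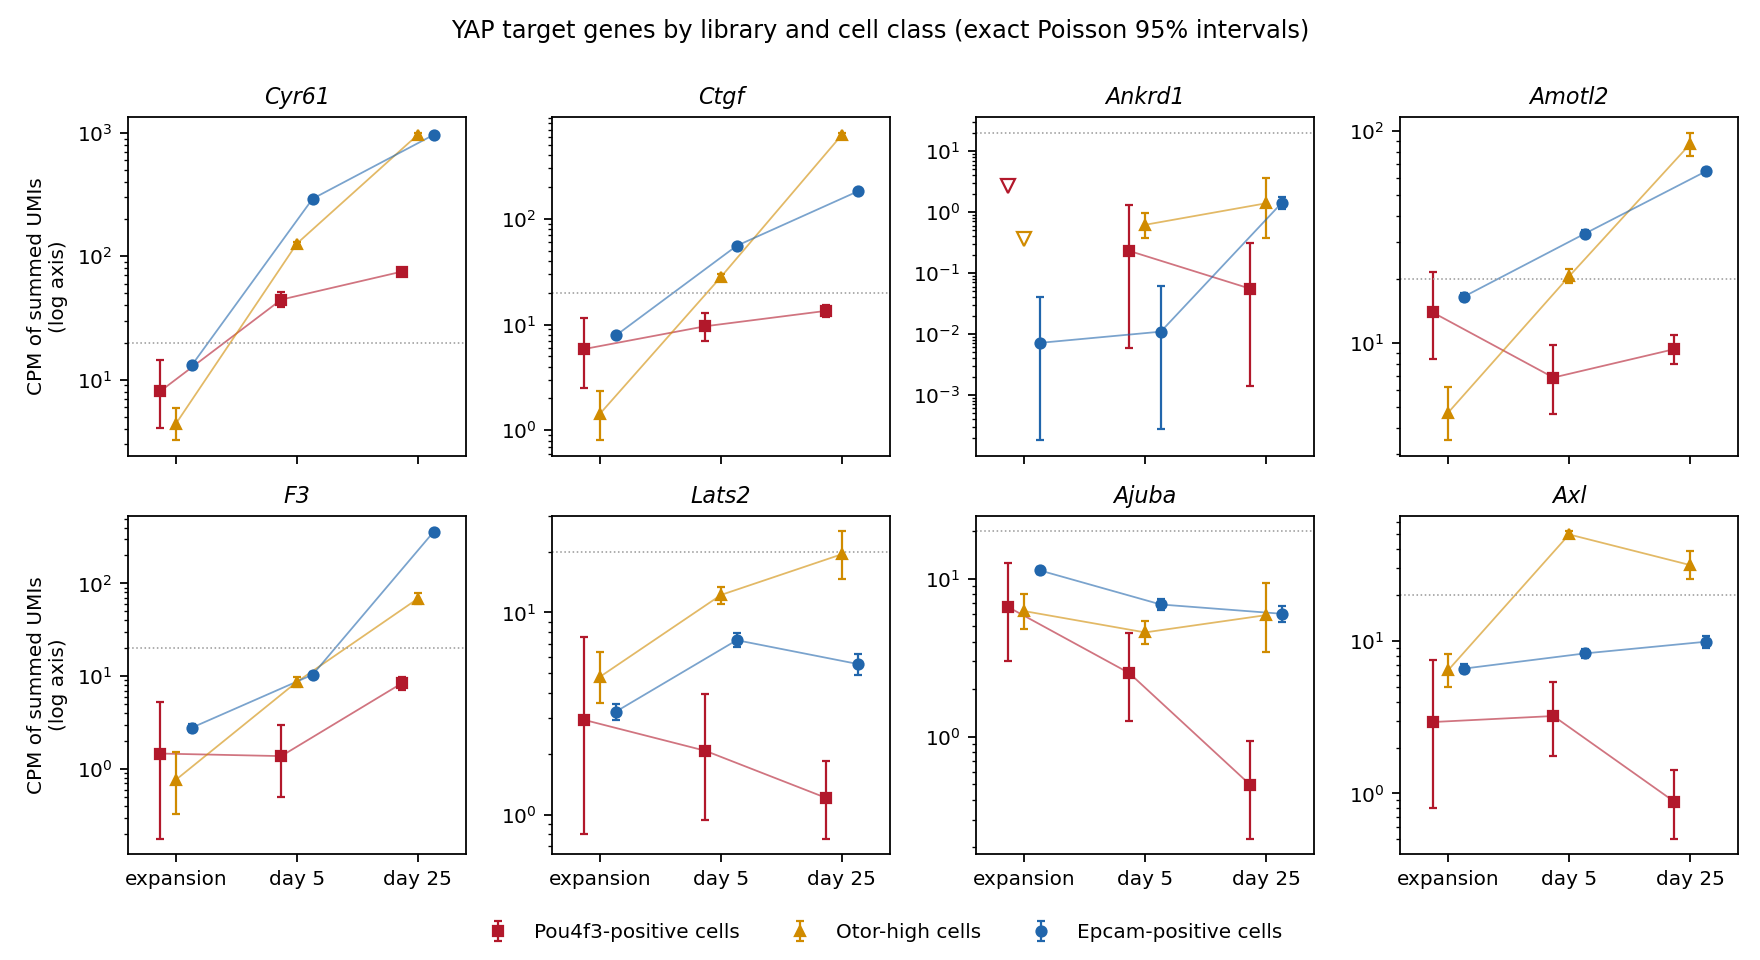
CPM of summed UMIs on a log axis for each YAP target gene (panels) in the 3 libraries, with 1 point per cell class, bars for exact Poisson 95% intervals, open triangles at the upper limit where no UMI was found and a dotted line at 20 CPM. On day 25 Cyr61 was at 75.3 CPM in Pou4f3-positive and 967 CPM in Otor-high cells, against 964 CPM in Epcam-positive cells.

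F3 encodes tissue factor, the cell surface receptor that starts coagulation, and its highest level was in Epcam-positive cells of day 25. Pou4f3-positive cells had 1.47, 1.38 and 8.44 CPM in expansion, day 5 and day 25. Otor-high cells had 0.769, 8.71 and 68.6 CPM at the same stages, where day 5 was 11.3-fold above expansion (5.66 to 26.5, from 8 UMIs in expansion) and day 25 7.88-fold above day 5 (6.52 to 9.50). Epcam-positive cells had 2.79 CPM in expansion, 10.4 CPM on day 5 and 359 CPM on day 25, a 34.7-fold higher level on day 25 than on day 5 (32.5 to 37.1). Over the whole span the ratio was 89.2 in Otor-high cells (44.4 to 209.5) and 129 in Epcam-positive cells (116 to 143), and the Otor-high value was 173 after every cell was thinned to 2000 UMIs and 500.5 in cells below the class median share of immediate early genes. Of all F3 UMIs of the day 25 library, 97.3% were in Epcam-positive cells, which were 60.4% of its kept cells.

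Amotl2, which encodes an angiomotin family protein of cell junctions that binds and restrains YAP, changed by smaller ratios. Pou4f3-positive cells had 14.0 CPM in expansion, 6.89 CPM on day 5 and 9.38 CPM on day 25, where no value reached 20 CPM. In Otor-high cells it was at 4.71, 20.7 and 87.0 CPM, with a ratio of 4.40 for day 5 over expansion (3.29 to 6.01) and of 4.20 for day 25 over day 5 (3.61 to 4.86). In Epcam-positive cells it was at 16.6 CPM in expansion, 32.9 CPM on day 5 and 64.7 CPM on day 25, and the same ratios were 1.98 (1.88 to 2.10) and 1.97 (1.87 to 2.07). Otor-high cells thus had the lowest Amotl2 level in expansion and the highest on day 25.

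Axl encodes a receptor tyrosine kinase for the ligand GAS6, and its largest change was between expansion and day 5 in Otor-high cells. In expansion the ratio of Otor-high to Epcam-positive cells was 0.977 (0.751 to 1.25). Pou4f3-positive cells stayed at or below 3.22 CPM. Otor-high cells had 6.44 CPM in expansion, 50.0 CPM (47.5 to 52.5) on day 5 and 31.5 CPM (25.4 to 38.7) on day 25. Day 5 was 7.76-fold above expansion (6.07 to 10.1), and the day 25 to day 5 ratio was 0.631 (0.505 to 0.780). Epcam-positive cells had 6.59, 8.29 and 9.89 CPM in expansion, day 5 and day 25.

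The other members stayed under 20 CPM in every class and library. Lats2 encodes a Hippo kinase that phosphorylates YAP and is itself induced by it. Pou4f3-positive cells had 2.94, 2.07 and 1.21 CPM of it in expansion, day 5 and day 25, Otor-high cells 4.81, 12.2 and 19.4 CPM, and Epcam-positive cells 3.23, 7.29 and 5.56 CPM. Ajuba encodes a LIM protein of junctions that binds LATS kinases, and Pou4f3-positive cells had 6.61, 2.53 and 0.497 CPM of it, from 9, 11 and 9 UMIs. Otor-high cells had 6.25, 4.58 and 5.89 CPM of Ajuba, and Epcam-positive cells 11.3, 6.88 and 6.01 CPM. Ankrd1, a nuclear ankyrin repeat protein gene and a frequent YAP readout in other tissues, had few UMIs: Pou4f3-positive cells held 0, 1 and 1 in the 3 libraries, Otor-high cells 0, 19 and 4, and Epcam-positive cells 1, 1 and 69. The 19 UMIs in day 5 Otor-high cells lay in 0.0667% of those cells, and its highest level was 1.41 CPM, in Epcam-positive cells of day 25.

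A gene was called higher or lower where its CPM + 1 differed by at least 2-fold and it had at least 20 CPM in either profile. A member under 20 CPM in a profile could therefore be called only as higher in the other profile of the comparison. Genes that did not reach that level could not be called, and the shares of all genes below are of those that did. On day 5 against expansion, 1 of the 8 members, Cyr61, was called higher in Pou4f3-positive cells and was the only one to reach that level there, where 15.8% of all 6662 genes tested were called higher and 8.84% lower. In Otor-high cells 4 of 8 were called higher (Cyr61, Ctgf, Amotl2 and Axl), all 4 that reached the level, against 20.5% of all genes called higher and 4.64% lower. In thinned cells Amotl2 stood at 17.9 CPM on day 5 there, under the level, and had no call. In Epcam-positive cells 2 of 8 were called higher (Cyr61 and Ctgf) and 3 reached the level, against 14.4% called higher and 10.7% lower. On day 25 against day 5, 0 of 8 were called in Pou4f3-positive cells, where 1 of the 8, Cyr61, reached the level, and 18.9% of all genes were higher and 8.70% lower. In Otor-high cells 4 of 8 were called higher (Cyr61, Ctgf, Amotl2 and F3) and 5 reached the level, against 16.7% higher and 5.06% lower, and in Epcam-positive cells 3 of 8 were (Cyr61, Ctgf and F3) and 4 reached it, against 18.7% higher and 5.47% lower. Over the whole span, day 25 against expansion, all that reached the level were called higher, 1 of 8 in Pou4f3-positive cells (29.2% of all genes higher, 11.9% lower), 5 of 8 in Otor-high cells (38.5% higher, 7.16% lower) and 4 of 8 in Epcam-positive cells (27.9% higher, 10.7% lower). No member was called lower in any of these 9 comparisons. In expansion each member was under 20 CPM in every class (at most 16.6 CPM, Amotl2 in Epcam-positive cells), so none could be called lower against that library. Ajuba in Pou4f3-positive cells, at 6.61 CPM in expansion and 0.497 CPM on day 25, was under the level and had no call. These comparisons share libraries, and their calls are given side by side only.

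How many genes of the whole table were called higher depended on the scaling, while the members called over time were the same under all 3 other scalings tried. On day 5 against expansion, higher genes made up 64.1% of all calls in Pou4f3-positive, 81.6% in Otor-high and 57.3% in Epcam-positive cells by total UMIs. These shares were 61.9%, 53.2% and 47.5% under TMM scaling, and 44.6%, 50.0% and 39.3% with ribosomal protein and mitochondrial genes left out of the total. On day 25 against day 5 they were 68.5%, 76.8% and 77.4% by total UMIs and 56.8%, 47.3% and 60.8% under TMM scaling. For day 25 against expansion they were 71.0%, 84.3% and 72.2% by total UMIs and 62.2%, 47.8% and 53.4% under TMM scaling. In that last comparison the median log2 ratio of all genes in Otor-high cells was 0.67 by total UMIs and -0.07 under TMM, the widest shift of these. The Cyr61 ratio in those cells was 219 by total UMIs and 139 under TMM, and the Ctgf ratio was 433 and 276.

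Levels of summed cells were compared with the share of cells holding a UMI after every cell was thinned to 2000 UMIs. Cyr61 was found in 0 of 145 Pou4f3-positive cells in expansion (up to 2.51%), in 2.84% on day 5 and in 8.23% on day 25. Among Otor-high cells the shares were 0.824%, 18.8% and 65.3%, and among Epcam-positive cells 2.30%, 37.8% and 70.2%. Without thinning, Ctgf was found in 5.80%, 26.6% and 30.2% of Epcam-positive cells at the 3 stages, and with it in 1.53%, 9.39% and 16.0%. On day 25, F3 was found in 1.07% of thinned Pou4f3-positive, 10.3% of Otor-high and 35.6% of Epcam-positive cells. The 3 genes were spread unevenly: of their UMIs in thinned Epcam-positive cells of day 25, the decile of cells with the most held 34.9% for Cyr61, 59.1% for F3 and 86.4% for Ctgf. Single thinned cells reached 28 Ctgf and 23 F3 UMIs.

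**Figure D2:**
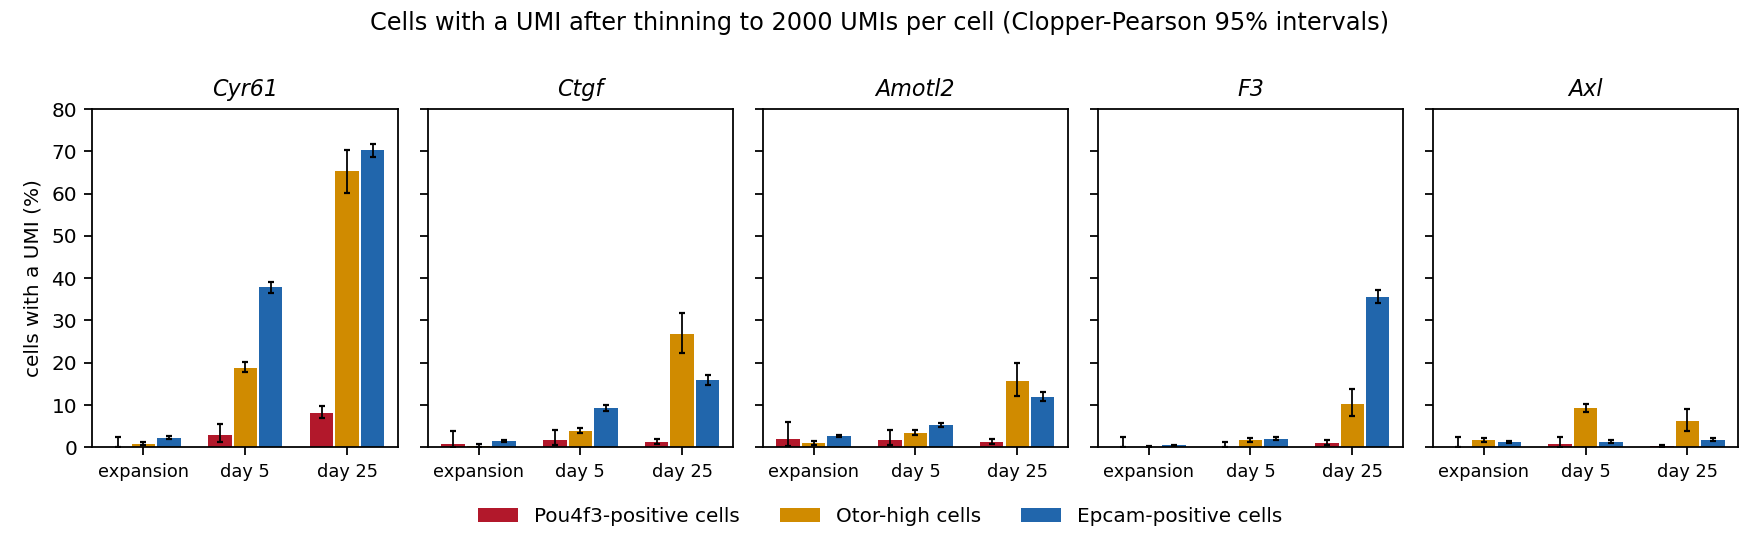
Percentage of cells with at least 1 UMI after thinning each cell to 2000 UMIs, for members with calls, by library and cell class; error bars are Clopper-Pearson 95% intervals. The Cyr61 share of Epcam-positive cells was 2.30% in expansion, 37.8% on day 5 and 70.2% on day 25.

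Cells with UMIs of several members were rare in expansion. None of the 8 members was detected in 95.9%, 91.8% and 88.3% of thinned Pou4f3-positive cells of expansion, day 5 and day 25, in 94.4%, 66.9% and 24.2% of Otor-high cells and in 90.0%, 52.0% and 16.8% of Epcam-positive cells. On day 25, 31.5% of Epcam-positive cells had UMIs of 2 members, 9.23% of 3 and 1.56% of 4 or more. Across day 25 Otor-high cells the thinned Cyr61 and Ctgf values had a Pearson correlation of 0.33 (360 cells of 1 library), and across day 25 Epcam-positive cells 0.17 (3521 cells), which is weak. Over the 9 library and class profiles, log2(CPM + 1) of Cyr61 and Ctgf correlated at 0.95, Ctgf and Amotl2 at 0.94, and Cyr61 and Ajuba at -0.09; these profiles share libraries and depth.

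Between Pou4f3-positive and Epcam-positive cells the intervals of the ratios included 1 in expansion and lay below 1 for each member but Ankrd1 on day 5. The Pou4f3-positive profile held 1361645 UMIs in expansion and 4351157 on day 5, so its intervals were wider in expansion. The share of all genes with intervals excluding 1 was not computed, and the difference between the stages was not tested. In expansion the Pou4f3-positive to Epcam-positive ratio was 0.618 for Cyr61 (0.308 to 1.11), 0.745 for Ctgf (0.321 to 1.47) and 0.841 for Amotl2 (0.506 to 1.32), and 0 of 8 members reached 20 CPM, where 11.6% of all genes were called higher and 7.37% lower. With 149 cells, differences inside these intervals were not detectable at this depth. On day 5 Cyr61 was 6.57-fold lower in Pou4f3-positive than in Epcam-positive cells (5.70 to 7.60), Ctgf 5.77-fold lower (4.26 to 8.01) and Amotl2 4.78-fold lower (3.34 to 7.09). These 3 of 8 were called lower, where 15.8% of all genes were called lower and 20.2% higher. With Pou4f3-positive cells taken from 1 Pou4f3 UMI, only Ctgf of the 3 was called, and the ratios of Cyr61 and Amotl2 were 0.536 and 0.616. On day 25 the gap was 12.8-fold for Cyr61 (12.1 to 13.5), 13.4-fold for Ctgf (11.8 to 15.3), 6.90-fold for Amotl2 (5.91 to 8.10) and 42.5-fold for F3 (36.3 to 50.2), all lower in Pou4f3-positive cells. As ratios these were 0.0781, 0.0744, 0.145 and 0.0235, and with Pou4f3-positive cells taken from 1 Pou4f3 UMI they were 0.169, 0.180, 0.234 and 0.108. With doublets kept the ratio of Cyr61 was 0.119, of Ctgf 0.168 and of F3 0.0870, and in cells below the class median share of immediate early genes they were 0.0371, 0.0154 and 0.00799. These 4 of 8 were called lower under each of these settings as well, where 18.1% of all genes were called lower and 20.3% higher, and higher genes made up 53.0% of all calls by total UMIs and 42.5% under TMM scaling. In expansion and on day 5 those shares were 61.1% and 56.2% by total UMIs and 33.7% and 43.5% under TMM.

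RNA of epithelial markers was also found in Pou4f3-positive cells, at levels that differed by gene. On day 25 Rab25 was at 169 CPM in Pou4f3-positive and 120.0 CPM in Epcam-positive cells, Cdh1 at 124 and 193 CPM and Spint2 at 322 and 627 CPM. Krt18 was at 55.0 and 1118 CPM and Cldn7 at 62.1 and 693 CPM, so Krt8 alone does not stand for the list. On day 25 Krt8, an epithelial keratin gene, had 4.95% of its Epcam-positive level in Pou4f3-positive cells, where Cyr61 had 7.81%, Ctgf 7.44%, Amotl2 14.5% and F3 2.35%. On day 5 the figures were 9.02% for Krt8, 15.2% for Cyr61, 17.3% for Ctgf, 20.9% for Amotl2 and 13.3% for F3. After thinning, 7.36% of day 25 Pou4f3-positive cells had a Krt8 UMI and 8.23% had a Cyr61 UMI, at median depths of 9636.5 UMIs in Pou4f3-positive and 8940 UMIs in Epcam-positive cells. The part of free RNA in these levels was not tested, and no expression of the members in Pou4f3-positive cells is read from them. Within the class, Cyr61 was at 86.5 CPM in day 25 cells above the median depth and at 37.5 CPM in those below it. On day 5 the levels above and below were 48.5 and 20.9 CPM, a split chosen after the data had been seen.

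**Figure D3:**
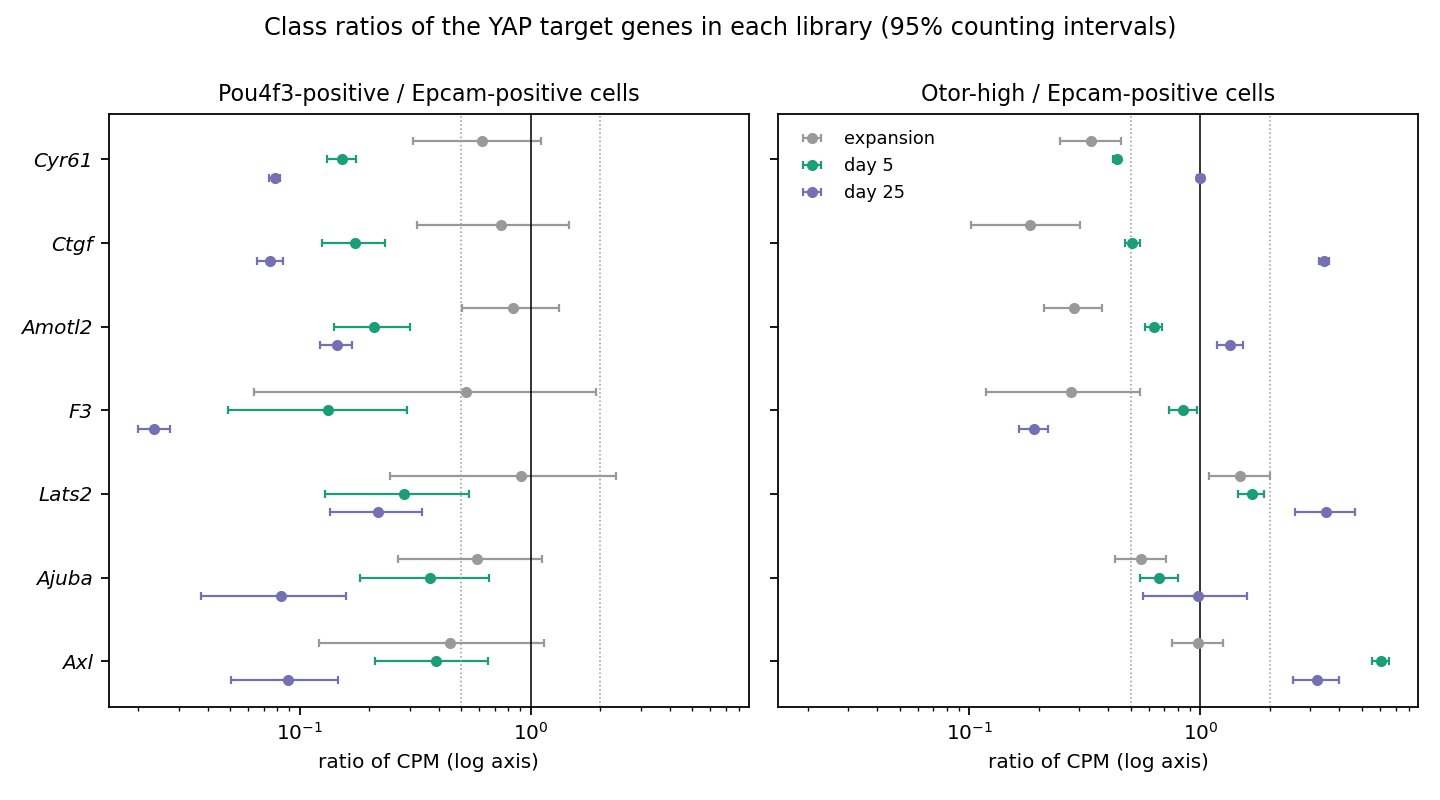
Ratio of CPM, on a log axis, of Pou4f3-positive over Epcam-positive cells (left) and of Otor-high over Epcam-positive cells (right) for each member except Ankrd1 in each library; bars are 95% counting intervals and dotted lines mark 2-fold. On day 25 the Cyr61 ratio was 0.0781 in Pou4f3-positive and 1.00 in Otor-high cells.

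Otor-high cells lay below Epcam-positive cells in expansion for Cyr61, Ctgf, Amotl2, F3 and Ajuba, and the order differed by gene on day 25. In expansion the Otor-high to Epcam-positive ratio was 0.338 for Cyr61 (0.247 to 0.453), 0.183 for Ctgf (0.102 to 0.303) and 0.284 for Amotl2 (0.210 to 0.377), with 0 of 8 members at 20 CPM, where 4.58% of all genes were called higher and 12.9% lower. On day 5 Axl was called higher in Otor-high cells, at 6.03-fold (5.52 to 6.58), where 10.9% of all genes were, and Cyr61 was called lower, at a ratio of 0.434 (0.419 to 0.448), where 11.5% were. Ctgf had a ratio of 0.508 (0.472 to 0.546), which was not called. It was called lower under TMM scaling at 0.463, median of ratios scaling at 0.484, mean CPM per cell at 0.445, in thinned cells at 0.396 and in cells below the median immediate early share at 0.398. On day 25 Ctgf was 3.44-fold higher (3.27 to 3.62) and Axl 3.19-fold higher (lower bound 2.52) in Otor-high cells, against 12.3% of all genes called higher. F3 was 5.23-fold lower (4.55 to 6.05), against 12.8% called lower, while Cyr61 had a ratio of 1.00 (0.965 to 1.04). The share of higher genes among all calls in this day 25 comparison was 49.1% by total UMIs and 37.8% under TMM, and in expansion 26.1% by total UMIs and 39.0% under median of ratios scaling. Epcam itself had 6.95%, 3.71% and 1.28% of its Epcam-positive level in Otor-high cells of expansion, day 5 and day 25.

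Within Epcam-positive cells of day 25 some members differed between cells with and without Krt8. Thinned day 25 cells with a Krt8 UMI (1996 cells) had 511 CPM of F3, and cells without one (1525 cells) had 216 CPM, a ratio of 2.37 (2.17 to 2.59). Ctgf was at 278 CPM with and 142 CPM without Krt8, Cyr61 at 1156 and 981 CPM, and Amotl2 at 69.1 and 65.9 CPM. Ajuba, low in both, was at 7.77 CPM with Krt8 and 1.64 CPM without it (ratio 4.74, 1.83 to 15.6). Fos ran the other way, at 1621 CPM in cells with Krt8 and 2530.5 CPM in cells without it. In expansion, where 548 thinned cells had a Krt8 UMI, Cyr61 was at 37.4 CPM with and 11.5 CPM without it. Epcam-positive cells with a UMI of Lgr5, used as a progenitor gene, had 343 CPM of Ctgf on day 25 and those without it 167 CPM. The Lgr5 split was of cells that were not thinned, and 215 of 3691 day 25 cells had an Lgr5 UMI. On day 25 Lgr5 itself was at 42.2 CPM in Pou4f3-positive and 6.42 CPM in Epcam-positive cells, so it did not mark progenitor or supporting cells alone. On day 5 the Ctgf levels were 93.2 and 51.5 CPM, and in expansion 6.77 and 8.94 CPM, in cells with and without Lgr5. The Krt8 split was chosen after the data had been seen, and the cells of each split came from the same library.

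**Figure D4:**
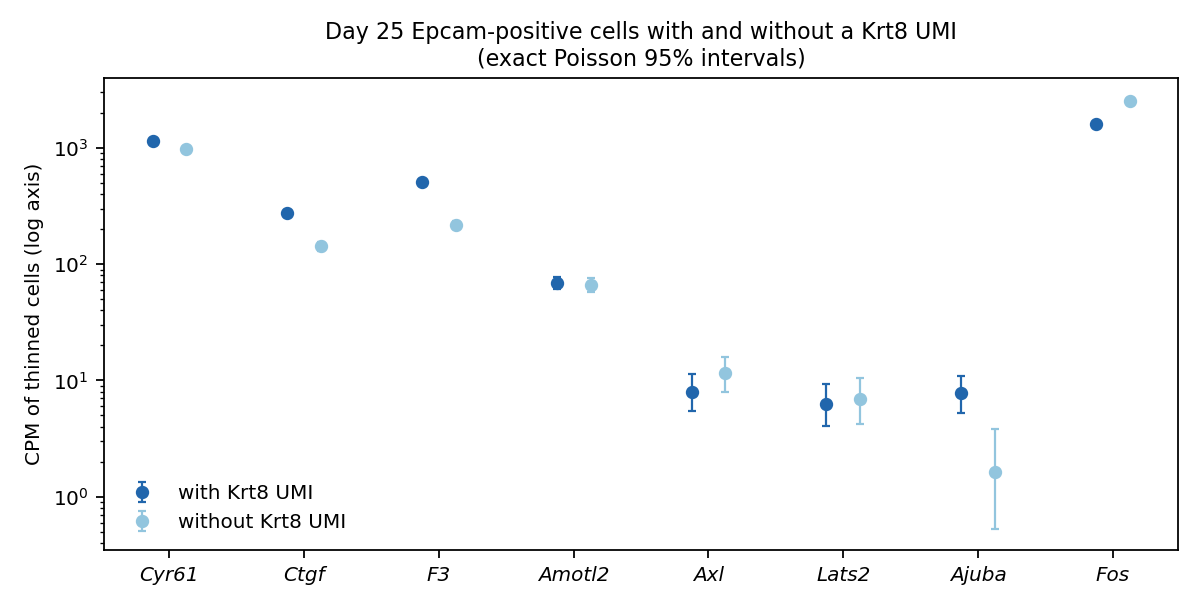
CPM on a log axis in thinned day 25 Epcam-positive cells with and without a Krt8 UMI, for the members and for Fos; bars are exact Poisson 95% intervals. F3 was at 511 CPM with and 216 CPM without Krt8, and Fos at 1621 and 2530.5 CPM.

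Of the 11 genes for YAP, TAZ, TEAD factors and their partners, 6 reached the level of 20 CPM in Epcam-positive cells of day 5 or expansion. On day 5 against expansion 0 were called higher and 1 lower, beside 14.4% and 10.7% of all genes. The gene called lower was Tead2, a TEAD factor gene, at 33.3 CPM on day 5, against 71.4 CPM in expansion. Yap1 in Epcam-positive cells was at 43.1, 32.8 and 41.4 CPM in expansion, day 5 and day 25, and Wwtr1 at 29.0, 32.8 and 95.8 CPM. Of the 13 measured Hippo kinase and regulator genes, 7 reached the level and 0 were called on day 5 in those cells. On day 25 against day 5, 10 reached it, 5 were called higher and 0 lower, beside 18.7% and 5.47% of all genes, among them Mob1b (119 CPM on day 25, 32.4 CPM on day 5), a LATS cofactor, and Lats1 (57.0 and 21.9 CPM). The median log2 ratio of this list was 1.01 in that comparison and that of all genes 0.27. In Otor-high cells Wwtr1 was at 120.3 CPM on day 5, against 30.6 CPM in expansion, and reached 210.4 CPM on day 25.

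Pou4f3-positive cells held less Yap1 RNA and more Nf2 and Wwc1 RNA than Epcam-positive cells on day 25. Yap1 was at 5.30 CPM in Pou4f3-positive and 41.4 CPM in Epcam-positive cells, and Amotl1, an angiomotin gene, at 4.25 and 65.1 CPM. On day 5, 5 of the 11 YAP, TAZ and TEAD genes were called lower in Pou4f3-positive cells and 6 reached the level, where 15.8% of all genes were called lower. On day 25, 4 were called lower and 5 reached it, where 18.1% were, and 0 were higher at either stage. Nf2, which encodes the upstream Hippo regulator merlin, was at 202 CPM in Pou4f3-positive and 25.1 CPM in Epcam-positive cells on day 25, and Wwc1, which encodes KIBRA, at 511 and 147 CPM. Of the 13 Hippo genes, 11 reached the level at each stage. On day 5, 5 were called higher and 1 lower in Pou4f3-positive cells, beside 20.2% and 15.8% of all genes, and on day 25, 2 were higher and 0 lower, beside 20.3% and 18.1%, so the day 25 count of higher genes was near the share over all genes.

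**Figure D5:**
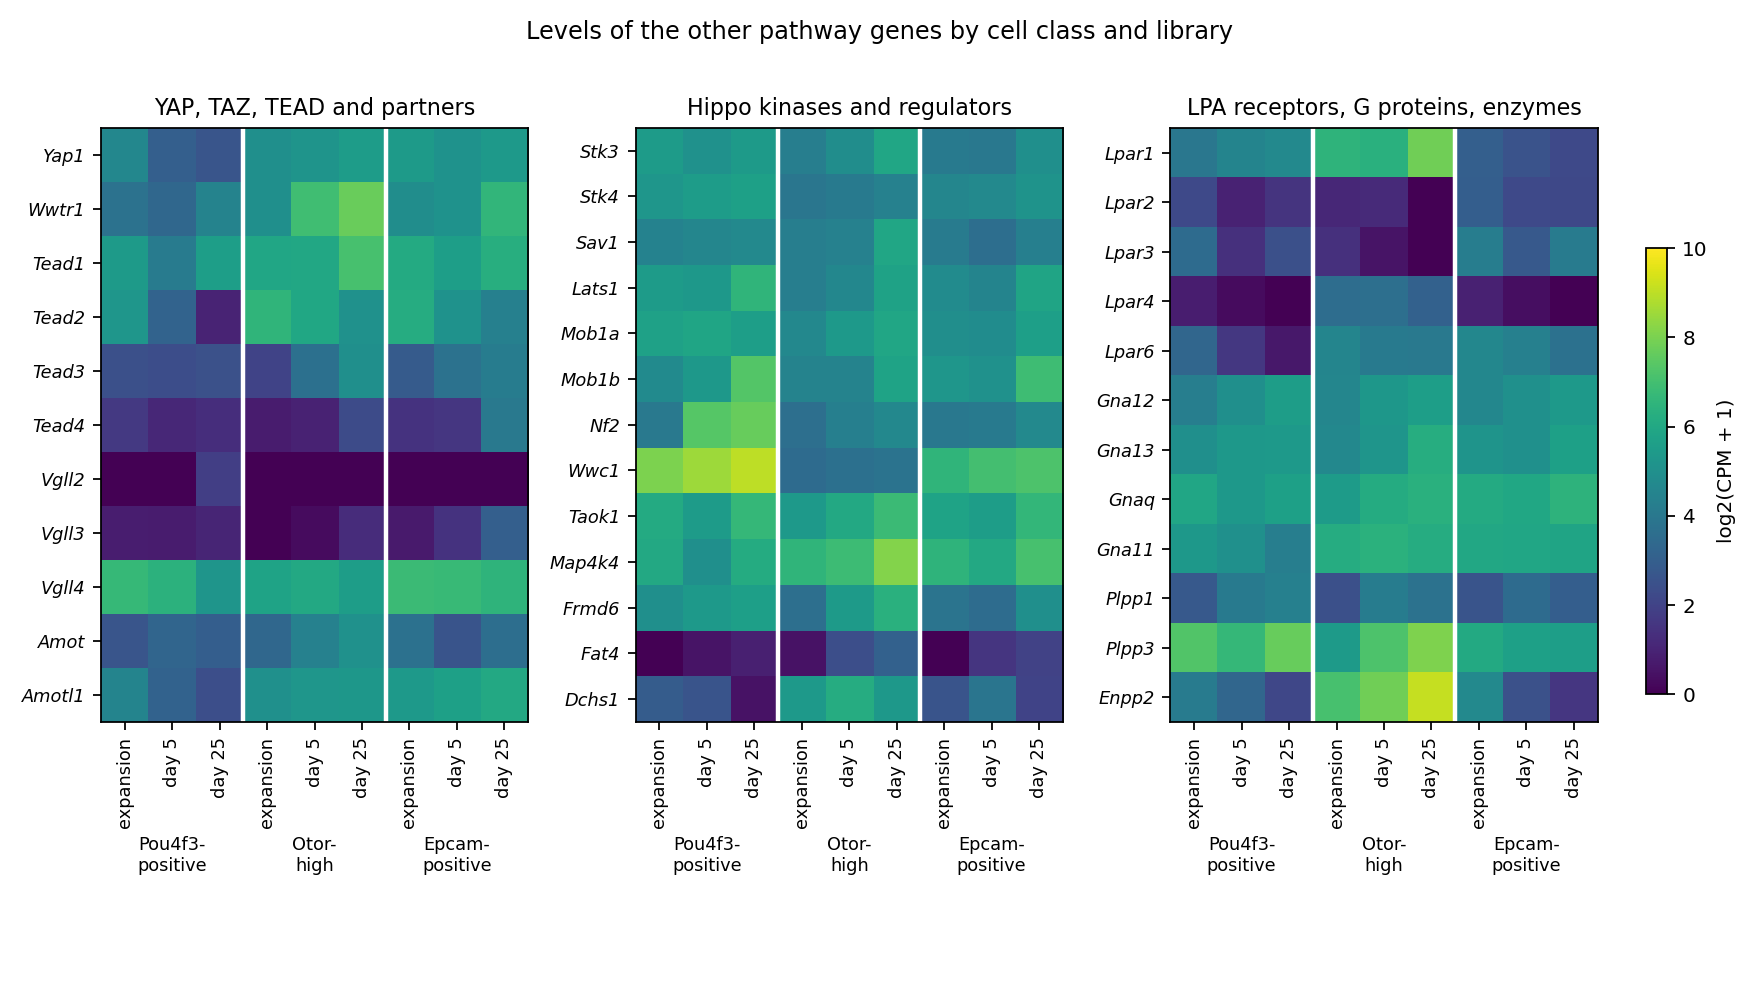
Colour shows log2(CPM + 1) of the other pathway genes (rows) in each cell class and library (columns), grouped into YAP, TAZ, TEAD and partners, Hippo kinases and regulators, and LPA receptors, G proteins and enzymes. On day 25 Nf2 was at 202 CPM in Pou4f3-positive and 25.1 CPM in Epcam-positive cells, and Enpp2 at 554 CPM in Otor-high and 1.96 CPM in Epcam-positive cells.

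The genes Enpp2 and Lpar1 were highest in Otor-high cells. Enpp2 encodes autotaxin, the enzyme that makes extracellular LPA, and it was at 136, 229 and 554 CPM in Otor-high cells of expansion, day 5 and day 25. Epcam-positive cells had 24.9, 4.55 and 1.96 CPM of it. Lpar1, a receptor gene for LPA, was at 89.5, 79.5 and 227 CPM in Otor-high and 7.26, 4.87 and 3.68 CPM in Epcam-positive cells.

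Among other genes of YAP and TAZ signatures, more were called higher than lower at the later stage in Epcam-positive and Otor-high cells. In Pou4f3-positive against Epcam-positive cells of day 25 more were called lower. Of 26 such genes, 11 reached the level in Epcam-positive cells, and 6 were called higher and 1 lower on day 5 against expansion, beside 14.4% and 10.7% of all genes, with a median log2 ratio of 1.25 over the list and 0.09 over all genes. Gadd45b, a stress-inducible gene, was at 40.7 CPM on day 5, against 1.83 CPM in expansion, Tgfb2, which encodes a TGF-beta ligand, at 1483 and 503 CPM, and Ccdc80, a matrix protein gene, was lower at 43.0 and 377 CPM. On day 25 against day 5, 7 were called higher and 1 lower there and 16 reached the level, beside 18.7% and 5.47% of all genes, with Tnfrsf12a, the receptor gene for TWEAK, at 951 CPM on day 25, against 91.3 CPM on day 5. In Otor-high cells 11 were called higher and 0 lower on day 5 against expansion, with 15 at the level and 20.5% of all genes higher. On day 25 against day 5, 12 were higher and 0 lower there, with 19 at the level and 16.7% of all genes higher. In Pou4f3-positive against Epcam-positive cells 3 were higher and 11 lower on day 25, with 17 at the level and 20.3% of all genes higher and 18.1% lower. Of the 21 measured SRF and actin genes, 12 reached the level in Epcam-positive cells on day 5 or in expansion, and 2 were called higher and 1 lower, near the 14.4% and 10.7% of all genes. On day 25 against day 5, 13 reached it, and 8 were called higher and 0 lower, beside 18.7% and 5.47% of all genes. Vcl, which encodes vinculin, was at 186 CPM on day 25, against 37.4 CPM on day 5.

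The summed level of immediate early genes, which respond to serum and to tissue dissociation, rose from expansion to day 25 in each class, as that of Cyr61 did. The 23 genes of that list summed to 1786, 2927 and 6834 CPM in Pou4f3-positive cells of expansion, day 5 and day 25, to 1514, 7433 and 13383 CPM in Otor-high cells, and to 1792, 10428 and 17764 CPM in Epcam-positive cells. For Otor-high cells below the class median of that share, Cyr61 was 40.2-fold higher on day 5 than in expansion and 8.94-fold higher on day 25 than on day 5. In Epcam-positive cells below it the Cyr61 ratios were 33.7 and 3.84 and the Ctgf ratios 13.1 and 2.48. In Pou4f3-positive cells below it the Cyr61 ratios were 2.12 and 2.88, with few UMIs. Across thinned day 25 Otor-high cells Fos correlated at -0.11 with Cyr61, -0.34 with Ctgf, 0.15 with Amotl2, -0.15 with F3 and 0.01 with Axl. Across those of Epcam-positive cells the values were -0.07 with Cyr61, -0.10 with Ctgf, 0.02 with Amotl2 and -0.27 with F3. For Pou4f3-positive cells Fos and Cyr61 correlated at 0.10. A list of 13 genes taken as targets of TGF-beta signalling held Id1, Id2, Id3, Smad6 and Bambi. Id3 gave 2661 of the 5297 CPM summed over it in day 5 Epcam-positive cells. The list is not read as activity of that pathway, whose type I receptors are inhibited by A83-01 of the day 5 medium. Of the 13 genes, 12 reached the level in Epcam-positive cells. On day 5 against expansion 8 were called higher and 0 lower, beside 14.4% and 10.7% of all genes. Their part in the result was not tested. Among them was Smad7, an inhibitor of that pathway, which was at 160.2 CPM on day 5, against 13.5 CPM in expansion. Summed heat shock genes stood at 2373, 1593 and 2219 CPM in Epcam-positive cells of expansion, day 5 and day 25, but single genes differed. On day 25 against expansion Hspb1 (209 and 4.30 CPM), Hspa1a (37.1 and 0.979 CPM), Hspa1b and Dnajb1 were called higher there. Hspe1 (370.3 and 790.0 CPM) was called lower, and Hsph1, Hsp90aa1 and Hspa8 were not called, beside 27.9% of all genes higher and 10.7% lower.

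Among 8863 genes with at least 20 CPM in a profile, those with the profile most like each member over the 9 library and class profiles were found by Pearson correlation of log2(CPM + 1). For Cyr61 they were Fst (0.981), Arpc2 (0.979) and Egr2 (0.975), for Ctgf Pmepa1 (0.972), Nfkbiz (0.969) and Etfdh (0.969), and for Amotl2 Col4a5 (0.973), Ets2 (0.968) and Cald1 (0.968). For F3 they were Rapgef6 (0.988), Emp1 (0.988) and Hspa1b (0.987), and for Axl Pdlim2 (0.987), Pdlim7 (0.977) and Aox1 (0.976). No gene was among the first 3 of more than 1 of these 5 members.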

How the data were processed

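Single cells were profiled with the 10x 3' v3 kit, per the labels' protocols. The authors deposited raw counts of UMIs per gene and cell made with Cell Ranger 3.0.1 or 3.1.0, per the file headers, and GRCm38 and hg38 are the builds in the submitters' processing notes. Aligner settings and annotation release are not given in the sources used here.

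Cells with at least 500 genes and at most 20% mitochondrial UMIs were kept, and doublets called by Scrublet in scanpy 1.11.5 were removed (9.16%, 4.68% and 2.41% in expansion, day 5 and day 25, where loading predicts 23.3%, 11.6% and 5.29%, so doublets remain). Kept cells held 180890908, 131881455 and 72459464 UMIs. Pou4f3-positive cells had at least 2 Pou4f3 UMIs. Otor-high cells had at least 20 Otor UMIs per 10000, at least 3 in all and more than of Epcam. Epcam-positive cells had at least 2 Epcam UMIs and were in neither other class. UMIs were summed per library and class and divided by the total (CPM). Levels have exact Poisson and ratios exact conditional binomial 95% intervals, shares Clopper-Pearson ones. No test was run, because each group had 1 library. A call needed a 2-fold ratio of CPM + 1 and 20 CPM in either profile, which was tested on simulated counts. A gene at 0 was set to 3 UMIs for a bound.

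The text names all 8 members, the genes of each list with the largest ratios, Yap1, Wwtr1 and the class markers, and the 3 genes most like each member. Members and lists were chosen with earlier results of these data known. Alternatives were TMM scaling (edgeR 4.0.16), median of ratios scaling, a total without ribosomal protein and mitochondrial genes, other filters and thresholds, kept doublets, shared barcodes left out, thinning to 2000 UMIs, mean CPM per cell, a pseudocount of 5 CPM and the lower immediate early share.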

Additional observations from a re-analysis of the deposited data

Results flagged for a closer look

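In 3 cases the intervals of a time ratio excluded 1 in opposite directions in different cell classes, and the difference between classes was not itself tested. The share of all genes with such opposite intervals was not computed, so these cases are not read as particular to the members. Amotl2 on day 5 against expansion had a ratio of 0.494 in Pou4f3-positive cells, with 30 UMIs on day 5 and 19 in expansion, of 4.40 in Otor-high and of 1.98 in Epcam-positive cells. Lats2 on day 25 against day 5 had a ratio of 1.60 in Otor-high and 0.762 in Epcam-positive cells. Axl on day 25 against day 5 had a ratio of 0.274 in Pou4f3-positive, 0.631 in Otor-high and 1.19 in Epcam-positive cells.

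Cells in none of the 3 classes (8168 in expansion, 1756 on day 5 and 518 on day 25) were used in no comparison and also held UMIs of the members. Cyr61 was at 4.43, 152 and 546 CPM there in expansion, day 5 and day 25, and Ctgf at 2.95, 36.9 and 180.3 CPM. Amotl2 was at 5.66, 18.9 and 65.0 CPM, F3 at 1.20, 7.81 and 55.0 CPM, and Axl at 5.22, 37.8 and 27.9 CPM. Lats2 was at 3.16, 9.55 and 15.2 CPM, and Ajuba at 8.10, 5.64 and 5.18 CPM. Their median depth was 3318.5, 1689 and 4196 UMIs per cell.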

How the results depend on the processing

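No paired analysis was possible because each group has 1 library. Of 270 counts of called members over 15 comparisons and 18 alternatives, 251 stayed within 1.5 times. Ratios with 0 UMIs in a profile had no value and are not among the ratios counted next. Cyr61 on day 5 against expansion in thinned Pou4f3-positive cells was left out in this way, although it lost its call. Of 643 ratios of called members 639 kept their call and 0 reversed. Of 787 ratios compared, however, 51 moved by over 1.5 times, between 0.207 and 5.61 times the value as reported. The ends were Ctgf in Pou4f3-positive against Epcam-positive cells on day 25 (0.0154) and F3 on day 25 against expansion in Otor-high cells (500.5), both with the lower immediate early share. With at least 50 Otor UMIs per 10000, day 25 against expansion in Otor-high cells gave 330.4 for Cyr61, 37.4 for Amotl2 and 2.81 for Axl, where 219, 18.5 and 4.90 were the values as reported, and day 5 against expansion gave 9.04 for Amotl2 and 4.63 for Axl, where 4.40 and 7.76 were. Cyr61 on day 5 against expansion in Pou4f3-positive cells had a ratio of 11.1 with at least 1 Pou4f3 UMI and of 3.49 by mean CPM per cell. The counts that moved were these, with the count as reported in brackets. With a level of at least 1 CPM, they were 2 (1) for day 5 against expansion, 3 (0) for day 25 against day 5 and 5 (1) for day 25 against expansion, all in Pou4f3-positive cells, 7 (3) and 8 (4) for Pou4f3-positive against Epcam-positive cells on day 5 and day 25, and 4 (0) for Otor-high against Epcam-positive cells in expansion. With at least 1 Pou4f3 UMI, the time counts in Pou4f3-positive cells were 2 (1), 1 (0) and 3 (1) in that order, and 1 (3) against Epcam-positive cells on day 5. Day 25 against day 5 in Pou4f3-positive cells gave 1 (0) with doublets kept, at least 4 Pou4f3 UMIs, thinned cells, mean CPM per cell or the lower immediate early share. Day 5 against expansion gave 0 (1) in thinned cells and with the lower immediate early share. Day 25 against expansion gave 3 (1) with doublets kept and 2 (1) with the stricter cell filter. The cause was not tested.

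Amotl2, just under 2-fold on day 25 against day 5 in Epcam-positive cells, was called at 2.43 in thinned cells, 2.45 by mean CPM and 2.04 with the lower immediate early share. Expansion Pou4f3-positive cells, 149 in number, limit every ratio that uses them. Conditions differ in medium, culture age, depth and library at once.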
